A study of Mus musculus with 21 samples.

Results

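The 10 mesothelial markers followed here were Msln, Muc16, Upk1b, Upk3b, Lrrn4, Krt8, Krt18, Krt19, Wt1 and Aldh1a2, chosen by symbol. The choice was made with earlier results of these data known. Counts of called markers set beside shares of all genes are therefore descriptions. All 10 were found among the 23204 gene symbols counted in each library, and 7 of the 10 were among the 11669 genes with enough counts to be tested. Krt8, Krt18 and Wt1 were not, and are given as counts.

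Mesothelial cells form the single layer that lines the pleura, the membrane that wraps the lung and faces the chest wall. They derive from mesoderm yet carry keratins and apical surface proteins like an epithelium, and they lie directly on the fibroblast-rich connective tissue beneath the pleura. Markers used to recognise them in mouse include mesothelin, uroplakins, simple keratins and the transcription factor Wt1, and none of these is exclusive to mesothelium.

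RNA came from lung cells of female C57BL/6 Col1a2-GFP transgenic mice. A Col1a2 promoter drives the fluorescent protein in these mice, and the cells of every group were sorted as positive for that protein. Cells were also negative for CD45, CD31, EpCAM, CD146 and Ter119 and excluded propidium iodide. The EpCAM depletion is aimed at epithelium, and no marker of mesothelium was used in the sort. The 7 groups of 3 libraries were silica (SiO2, 400 mg/kg, named the progressive model) at day 7, 14 and 63, bleomycin (BLM, 2 mg/kg, named the reversible model) at the same days, and untreated mice. Tags from the 3′ ends of polyadenylated RNA were counted per gene. Levels are CPM, each gene's count as a share of its library's total count, scaled between libraries by the trimmed mean of M-values. They are not divided by transcript length, since each transcript should give a tag at its end, but capture can differ between genes.

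Total counts ran from 2080636 to 4477283 per library, with a median of 3774431, so that a single count was worth well under 1 CPM. Separate mice per library are not stated by the labels, so p-values measure the spread between libraries, which may be technical. The sort was checked on marker lists. Summed over 6 genes (Col1a1, Col1a2, Col3a1, Pdgfra, Dcn and Lum), fibroblast markers held 16480 to 30300 CPM. Of 17 epithelial markers 14 were in the files. Their sum was 42.5 to 64.5 CPM at SiO2 day 7 and 50.7 to 61.8 CPM at BLM day 7, against 22.1 to 33.7 CPM in untreated libraries, and it ran from 10.9 to 31.8 CPM in the other 4 groups. Of that list, Epcam, Cdh1, Cldn7 and Lamp3 each averaged at most 0.583 CPM in any group, and EpCAM was itself depleted in the sort. Among other genes of that list, Sftpb, a surfactant protein gene of alveolar epithelium, averaged 8.76 CPM at SiO2 day 7 and 9.76 CPM at BLM day 7, against 1.25 CPM in untreated libraries. Sftpc, another surfactant protein gene, averaged 11.6 and 12.8 CPM, against 2.94 CPM, and both genes passed the test used below in both models. Cldn18, a claudin of lung epithelium, averaged 21.45 and 22.3 CPM, against 16.6 CPM, and did not pass. Summed markers of myeloid cells (5.12 to 38.0 CPM), lymphocytes (4.003 to 72.7 CPM), endothelium (19.7 to 49.8 CPM) and pericytes or smooth muscle (95.3 to 245.7 CPM) stayed far below those of fibroblasts. These sums differed between groups. Lymphocyte markers averaged 56.0 CPM at SiO2 day 7 and 47.6 CPM at BLM day 7, against 7.32 CPM in untreated libraries. The lymphocyte genes Cd3e, Cd79a and Cd79b had no counts in either of these day 7 groups, while Cd3e and Cd79a had counts in untreated libraries. Only 2 of the 7 lymphocyte genes were tested, and 1 was higher at each day 7 than in untreated libraries. The rise of this sum therefore rests on few genes of the list. At SiO2 day 63, myeloid markers averaged 35.9 CPM, against 7.88 CPM, and pericyte or smooth muscle markers 231.0 CPM, against 105.1 CPM. At BLM day 63, lymphocyte and myeloid markers averaged 5.40 and 7.69 CPM. The part of these lists in the results below was not tested.

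In the mm10 build with GENCODE vM21 annotation, Msln (chr17:25748613-25754378, minus strand) encodes mesothelin, a glycoprotein tethered to the mesothelial surface. Muc16 (chr9:18495455-18674530, minus strand) encodes the large transmembrane mucin that binds mesothelin. Upk1b (chr16:38773184-38800328, minus strand) encodes a tetraspanin of the uroplakin family, and Upk3b (chr5:136038496-136046487, plus strand) encodes a single-pass uroplakin. Lrrn4 (chr2:132868305-132880891, minus strand) encodes a leucine-rich repeat membrane protein. Krt8 (chr15:101996698-102004482, minus strand), Krt18 (chr15:102028180-102032027, plus strand) and Krt19 (chr11:100140810-100148665, minus strand) encode keratins of simple epithelia. Aldh1a2 (chr9:71215789-71296243, plus strand) encodes the enzyme that makes retinoic acid from retinaldehyde, and Wt1 (chr2:105126529-105173616, plus strand) encodes a zinc-finger transcription factor of mesothelial development. Krt8 overlaps a long non-coding RNA, Aldh1a2 a processed pseudogene and Muc16 a short non-coding RNA, each on the opposite strand. The strand setting of the counting is not given in the sources used here, so reads of these pairs cannot be told apart, and a pseudogene named after Krt8 could share its reads.

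Promoters are shown for Upk3b, Lrrn4, Aldh1a2 and Muc16, the 4 tested markers found in the RefSeq promoter table (GRCm38.p6), which held 6 of the 10 markers. All 4, like every other tested marker, had higher levels in every SiO2 day 14 library than in every SiO2 day 7 library. The same held for 18.5% of all tested genes. Upk3b and Muc16 passed the filter on low counts only through groups other than SiO2 day 7. Each line gives the 250 bases before the transcription start, 5′ to 3′ on the gene's own strand, with matches to 4 searched motifs in capitals.
Upk3b, chr5:136038246-136038495, plus strand: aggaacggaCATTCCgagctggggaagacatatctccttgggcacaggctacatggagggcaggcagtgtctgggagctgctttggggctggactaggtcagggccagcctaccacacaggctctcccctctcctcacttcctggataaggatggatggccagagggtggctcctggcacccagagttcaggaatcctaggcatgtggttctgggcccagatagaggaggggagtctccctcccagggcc
Lrrn4, chr2:132880863-132881112, minus strand: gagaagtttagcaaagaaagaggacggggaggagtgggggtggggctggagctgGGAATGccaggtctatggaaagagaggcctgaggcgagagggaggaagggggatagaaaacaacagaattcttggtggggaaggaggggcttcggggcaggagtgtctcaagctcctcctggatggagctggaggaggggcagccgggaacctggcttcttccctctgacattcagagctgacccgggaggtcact
Aldh1a2, chr9:71215539-71215788, plus strand: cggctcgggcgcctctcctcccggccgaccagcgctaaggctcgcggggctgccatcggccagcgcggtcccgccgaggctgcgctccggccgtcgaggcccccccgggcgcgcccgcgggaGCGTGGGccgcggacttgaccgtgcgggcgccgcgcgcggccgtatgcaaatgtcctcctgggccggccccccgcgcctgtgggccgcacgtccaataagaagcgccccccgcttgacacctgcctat
Muc16, chr9:18674604-18674853, minus strand: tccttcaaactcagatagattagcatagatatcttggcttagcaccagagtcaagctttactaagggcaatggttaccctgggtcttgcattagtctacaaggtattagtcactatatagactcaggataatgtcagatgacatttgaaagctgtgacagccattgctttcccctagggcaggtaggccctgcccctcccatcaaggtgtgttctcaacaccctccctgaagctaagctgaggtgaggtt
All motifs were searched on both strands. Factors of the WT1 and EGR families bind the core written GCGTGGG. For the TEAD factors the letters searched were GGAATG. A match to the core promoter element bound by the basal machinery was taken as TATAAA. Sites of Sp factors were taken as GGGCGG, and no motif found overlapped another. GGAATG lay 241 bases before the start of Upk3b, on the opposite strand, and 196 bases before the start of Lrrn4, on its own strand. GCGTGGG lay 128 bases before the start of Aldh1a2. Of 32851 mouse promoters of the same length, 12.6% hold GGAATG and 4.30% hold GCGTGGG, and TATAAA (12.4%) and GGGCGG (32.7%) were not in the 4 windows shown. None of the 4 motifs was in the Muc16 window. The G and C content was 60.8%, 59.2%, 77.6% and 46.4% for Upk3b, Lrrn4, Aldh1a2 and Muc16, against a median of 52.4%. A letter match is a description and says nothing of binding.

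The 10 markers summed to between 135.4 and 657.3 CPM, and Upk1b made up most of that. Upk1b supplied 55.3% (BLM day 7) to 86.8% (BLM day 63) of the summed level, and 78.0% in untreated libraries. Without Upk1b the sum was 90.7, 170.8 and 134.4 CPM in untreated libraries. In silica the sum without Upk1b was 69.7, 52.3 and 47.1 CPM at day 7, 151.3, 119.4 and 231.5 CPM at day 14, and 56.8, 44.5 and 65.7 CPM at day 63. In bleomycin it was 199.3, 167.2 and 95.4 CPM at day 7, 101.0, 115.3 and 105.3 CPM at day 14, and 60.0, 45.6 and 54.3 CPM at day 63. The silica series was thus low, high and low again, while in bleomycin the sum was lowest at day 63. In RNA pooled from many cells, fewer cells of a type and less RNA per cell cannot be told apart.

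**Figure D1:**
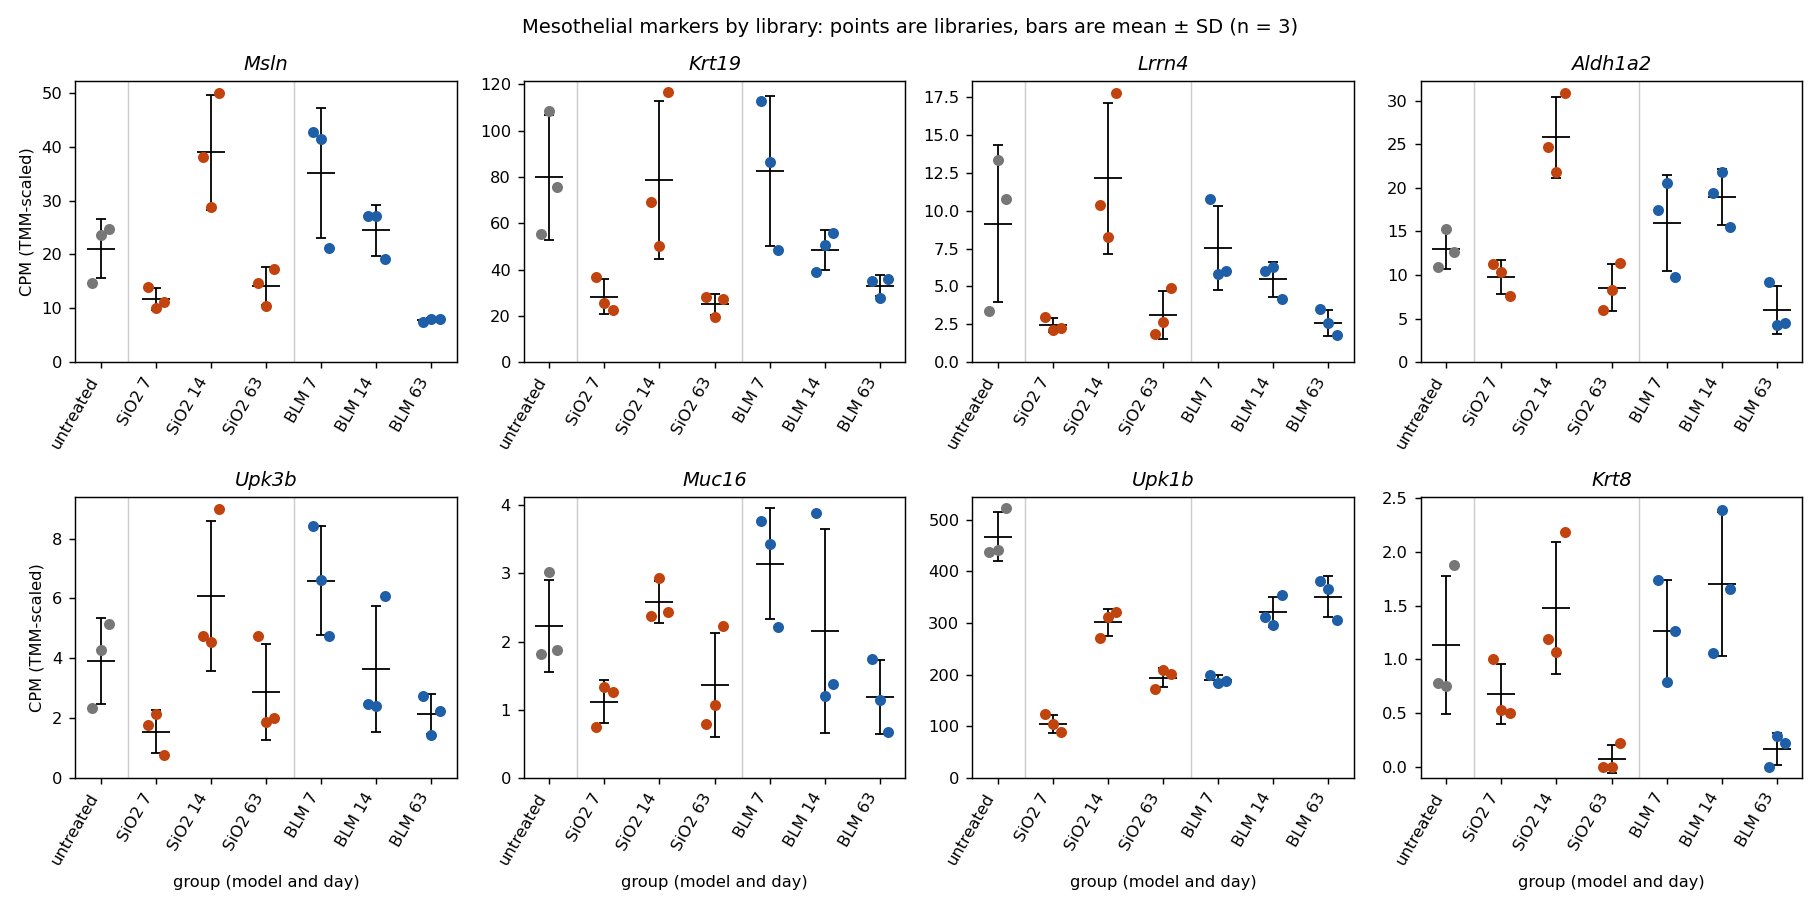
Level of 8 markers (CPM, linear axes) in each of the 21 libraries by group; points are libraries, and bars give mean and SD of 3. Msln, Krt19, Lrrn4, Aldh1a2, Upk3b and Upk1b have their highest mean of the silica series at day 14, and Upk1b is highest of all in untreated libraries.

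Among the surface proteins, Msln had 14.8, 23.6 and 24.8 CPM in untreated libraries. In silica it had 14.1, 10.1 and 11.1 CPM at day 7, 38.0, 28.8 and 50.1 CPM at day 14, and 14.7, 10.4 and 17.4 CPM at day 63. In bleomycin it had 42.7, 41.5 and 21.2 CPM at day 7, 27.2, 27.2 and 19.1 CPM at day 14, and 7.47, 8.04 and 8.01 CPM at day 63. All 3 libraries of SiO2 day 14 lay above all 3 untreated ones, and those of BLM day 63 lay below every other library of the study. The group means spanned 4.97-fold from BLM day 63 to SiO2 day 14. In the order of group means the only neighbours whose libraries did not overlap were SiO2 day 7 and BLM day 63.

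Upk1b was the most abundant marker, with 438.0, 441.4 and 523.0 CPM in untreated libraries. In silica it had 123.2, 103.9 and 88.4 CPM at day 7, 271.9, 312.6 and 320.7 CPM at day 14, and 172.7, 208.5 and 201.9 CPM at day 63. Bleomycin libraries had 199.9, 183.3 and 187.9 CPM at day 7, 312.2, 296.7 and 354.0 CPM at day 14, and 381.8, 365.6 and 305.8 CPM at day 63. Every treated library was below every untreated library. Ordered by mean, untreated libraries stood apart from BLM day 63 next to them, SiO2 day 14 from SiO2 day 63, and BLM day 7 from SiO2 day 7, while the other neighbours overlapped.

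Lrrn4 was scarcer, with 3.37, 13.3 and 10.8 CPM in untreated libraries, the first being far below the other two. In silica it had 3.01, 2.13 and 2.28 CPM at day 7, 10.4, 8.26 and 17.7 CPM at day 14, and 1.84, 2.66 and 4.90 CPM at day 63. The bleomycin series read 10.7, 5.81 and 6.02 CPM at day 7, 6.00, 6.28 and 4.15 CPM at day 14, and 3.48, 2.58 and 1.78 CPM at day 63. The SiO2 day 14 libraries stood above all those of the other silica days. No 2 neighbours in the order of its group means stood apart.

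Upk3b and Muc16 were rarer still. Upk3b had 3.92 ± 1.44 CPM in untreated libraries and, in silica, 1.55 ± 0.707, 6.09 ± 2.51 and 2.87 ± 1.62 CPM at day 7, 14 and 63 (mean ± SD, n = 3). In bleomycin its level was 6.59 ± 1.83, 3.65 ± 2.11 and 2.13 ± 0.656 CPM at those days. Muc16 had 2.23 ± 0.677 CPM in untreated libraries, 1.12 ± 0.316, 2.58 ± 0.306 and 1.36 ± 0.763 CPM in silica, and 3.14 ± 0.817, 2.15 ± 1.50 and 1.19 ± 0.539 CPM in bleomycin. Muc16 had 3 to 13 counts per library, and only 5 of 21 libraries exceeded the filter level of 2.65 CPM, so it entered the test through its higher libraries. Upk3b exceeded that level in 11 of 21 libraries. No SiO2 day 7 library exceeded it for either gene, so both entered the test through other groups. Where counts of markers set SiO2 day 7 below another group, the part of these genes is a description. For neither gene did neighbouring groups stand apart.

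Krt19 was the only keratin among the members at an appreciable level, with 55.2, 108.5 and 75.9 CPM in untreated libraries. In silica it had 36.9, 25.5 and 22.5 CPM at day 7, 69.2, 50.1 and 116.6 CPM at day 14, and 28.1, 19.7 and 27.2 CPM at day 63. In bleomycin it had 112.9, 86.4 and 48.5 CPM at day 7, 38.9, 50.8 and 55.8 CPM at day 14, and 35.1, 27.8 and 36.0 CPM at day 63. Libraries of SiO2 day 7, SiO2 day 63 and BLM day 63 were below all untreated ones. Among neighbours in the order, BLM day 14 stood apart from BLM day 63, and the others overlapped.

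Krt8 and Krt18, which pair as filaments in simple epithelia, were close to absent. Krt8 had 68 counts over all 21 libraries and Krt18 had 44, with at most 2.39 and 1.58 CPM in any library. Krt8 had 10 counts over the 3 untreated libraries, 8, 17 and 1 at SiO2 day 7, 14 and 63, and 13, 17 and 2 at BLM day 7, 14 and 63. At SiO2 day 63 the ratio to SiO2 day 14 was 0.0560 (exact 95% interval 0.00134 to 0.357), and at BLM day 63 that to BLM day 14 was 0.103 (0.0116 to 0.434); the intervals cover counting error only. Krt18 had 5 counts in untreated libraries, 4, 6 and 2 in silica and 14, 10 and 3 in bleomycin, and all 6 of its counts at SiO2 day 14 came from replicate 3. Its ratio of BLM day 63 to day 14 was 0.263 (0.0465 to 1.02).

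Aldh1a2, the enzyme, had 10.9, 15.3 and 12.6 CPM in untreated libraries. In silica it had 11.3, 10.4 and 7.59 CPM at day 7, 24.7, 21.9 and 30.9 CPM at day 14, and 6.05, 8.25 and 11.4 CPM at day 63. Its bleomycin libraries had 17.4, 20.6 and 9.82 CPM at day 7, 19.4, 21.8 and 15.5 CPM at day 14, and 9.21, 4.30 and 4.45 CPM at day 63. SiO2 day 14 headed the order, and BLM day 14 came next. Their libraries did not overlap, but only just (21.85 against 21.81 CPM), and the difference did not pass (log2 fold change 0.46 ± 0.24, edgeR adjusted p = 0.215). Wt1, the transcription factor, had 55 counts over all libraries and at most 1.86 CPM. It had 12 counts in untreated libraries, 5, 14 and 4 in silica and 5, 13 and 2 in bleomycin, and its ratio of BLM day 63 to BLM day 14 was 0.135 (0.0148 to 0.596).

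Silica against untreated was asked first. At day 7, 5 of the 7 tested markers were lower and none was higher, where 20.6% of all tested genes were lower and 44.1% were called in either direction (adjusted p under 0.05). Upk1b fell to 105.1 ± 17.4 CPM at SiO2 day 7, against 467.4 ± 48.1 CPM in untreated libraries (SD, n = 3 each), a log2 fold change of -2.15 ± 0.12 (SE, adjusted p = 1.05e-14). Krt19 fell by 1.50 ± 0.28 on the log2 scale (adjusted p = 4.42e-05) and Lrrn4 by 1.85 ± 0.44 (adjusted p = 0.000985). Msln was at -0.81 ± 0.27 (adjusted p = 0.0133) and Upk3b at -1.27 ± 0.52 (adjusted p = 0.0438). Upk3b passed the filter on low counts only through groups other than SiO2 day 7, so its place among the lower markers is a description. Muc16 (-1.02 ± 0.55, adjusted p = 0.126) and Aldh1a2 (-0.41 ± 0.28, adjusted p = 0.243) did not pass. The summed epithelial markers were higher at SiO2 day 7 than in untreated libraries, while the keratin Krt19 was lower. Of the endothelial list, 7 of 8 genes were in the files and 4 were tested. Their sum was 19.7 to 28.3 CPM at SiO2 day 7, against 39.2 to 46.4 CPM in untreated libraries, with Kdr and Tek lower and Plvap higher. Of the same list, the untested genes Pecam1, Cdh5 and Cldn5 averaged at most 0.263 CPM in any group. The part of either list in these results was not tested. The median log2 fold change was -1.27 over the 7 tested markers and 0.04 over all tested genes. The Msln call was lost without SiO2 day 7 replicate 2 (-0.72, adjusted p = 0.0561) or untreated replicate 2 (-0.68, adjusted p = 0.0782). That of Upk3b was lost without SiO2 day 7 replicate 1 (-1.38, adjusted p = 0.0637) or 3 (-0.95, adjusted p = 0.177), or untreated replicate 2 (-1.14, adjusted p = 0.136) or 3 (-1.10, adjusted p = 0.121), and with limma-voom (-1.24, adjusted p = 0.0637).

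At SiO2 day 14, Msln and Aldh1a2 were higher than in untreated libraries and Upk1b was lower, 3 of 7 markers where 24.1% of all genes were called. Msln had 39.0 ± 10.7 CPM, against 21.1 ± 5.49 CPM in untreated libraries (log2 fold change 0.91 ± 0.23, adjusted p = 0.00398). Aldh1a2 had 25.8 ± 4.61 CPM, against 12.95 ± 2.24 CPM (0.99 ± 0.25, adjusted p = 0.00381). Upk1b had 301.7 ± 26.2 CPM, against 467.4 ± 48.1 CPM (-0.63 ± 0.12, adjusted p = 0.000125). Krt19 was at -0.02 ± 0.25, Lrrn4 at 0.44 ± 0.35, Upk3b at 0.71 ± 0.41 and Muc16 at 0.17 ± 0.47, none of which passed. The Msln call was lost without untreated replicate 1 (0.69, adjusted p = 0.0589).

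At SiO2 day 63, Upk1b, Krt19 and Lrrn4 were lower than in untreated libraries and no tested marker was higher, where 12.5% of all genes were lower and 27.8% were called. Upk1b had 194.3 ± 19.1 CPM, against 467.4 ± 48.1 CPM (log2 fold change -1.26 ± 0.12, adjusted p = 9.78e-10). Krt19 had 25.0 ± 4.61 CPM, against 79.9 ± 26.9 CPM (-1.68 ± 0.28, adjusted p = 2.14e-05). Lrrn4 was at -1.48 ± 0.42 (adjusted p = 0.00757) with overlapping libraries, and its call was lost without untreated replicate 2 (-0.98, adjusted p = 0.151). Msln was at -0.54 ± 0.26 (adjusted p = 0.124) and passed without untreated replicate 1 (-0.76, adjusted p = 0.0419). Aldh1a2 (-0.59 ± 0.28), Upk3b (-0.40 ± 0.46) and Muc16 (-0.70 ± 0.52) did not pass. Krt8 had 1 count at SiO2 day 63, against 10 in untreated libraries (ratio 0.0824, exact 95% interval 0.00190 to 0.579).

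Bleomycin against the same untreated libraries gave a different early picture. At BLM day 7, Msln was higher and Upk1b lower, 2 of 7 tested markers where 31.6% of all genes were called. Msln had 35.1 ± 12.0 CPM, against 21.1 ± 5.49 CPM in untreated libraries (log2 fold change 0.77 ± 0.24, adjusted p = 0.0125), but the libraries overlapped. That call was lost without BLM day 7 replicate 1 (0.62, adjusted p = 0.0713) or 2 (0.63, adjusted p = 0.0800), or untreated replicate 1 (0.55, adjusted p = 0.114). Upk1b had 190.4 ± 8.59 CPM, against 467.4 ± 48.1 CPM (-1.29 ± 0.12, adjusted p = 8.88e-10). Krt19 was at 0.05 ± 0.25, Lrrn4 at -0.26 ± 0.38, Aldh1a2 at 0.31 ± 0.27, Upk3b at 0.81 ± 0.41 and Muc16 at 0.46 ± 0.46, and none of these 5 passed.

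At BLM day 14, Upk1b (log2 fold change -0.54 ± 0.12, adjusted p = 0.000382) and Krt19 (-0.72 ± 0.26, adjusted p = 0.0312) were lower than in untreated libraries, 2 of 7 where 18.5% of all genes were lower and 39.3% were called. Krt19 had 48.5 ± 8.72 CPM, against 79.9 ± 26.9 CPM, with 1 BLM library just above the lowest untreated one. Its call was lost without BLM day 14 replicate 1 (-0.58, adjusted p = 0.127) or 2 (-0.75, adjusted p = 0.0570), or untreated replicate 2 (-0.40, adjusted p = 0.293). It was also lost with DESeq2 (-0.74, adjusted p = 0.0899) and limma-voom (-0.67, adjusted p = 0.0545). Lrrn4 was at -0.73 ± 0.40 (adjusted p = 0.154) and passed without untreated replicate 1 (-1.18, adjusted p = 0.0128). Aldh1a2 was at 0.54 ± 0.26 (adjusted p = 0.108), with all BLM day 14 libraries above all untreated ones. Msln (0.23 ± 0.25), Upk3b (-0.01 ± 0.45) and Muc16 (-0.14 ± 0.51) did not pass.

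At BLM day 63, the late time of the model named reversible, 5 of 7 tested markers were lower than in untreated libraries, where 5.48% of all genes were lower and 11.5% were called in either direction. Msln had 7.84 ± 0.320 CPM, against 21.1 ± 5.49 CPM in untreated libraries (log2 fold change -1.40 ± 0.28, adjusted p = 0.000905). Krt19 had 33.0 ± 4.48 CPM, against 79.9 ± 26.9 CPM (-1.27 ± 0.27, adjusted p = 0.00160). Lrrn4 (-1.78 ± 0.44, adjusted p = 0.00598), Aldh1a2 (-1.11 ± 0.30, adjusted p = 0.0133) and Upk1b (-0.41 ± 0.12, adjusted p = 0.0172) were the other 3. The Lrrn4 libraries overlapped with untreated ones. Upk3b was at -0.79 ± 0.48 and Muc16 at -0.95 ± 0.54. The median was -1.11 over the 7 tested markers and 0.01 over all tested genes. The summed endothelial markers were at 25.4 to 33.4 CPM at BLM day 63, against 39.2 to 46.4 CPM in untreated libraries, with none of the 4 tested genes passing, and their part was not tested. Single libraries decided 3 of the calls. The Lrrn4 call was lost without untreated replicate 2 (-1.28, adjusted p = 0.120) or BLM day 63 replicate 3 (-1.55, adjusted p = 0.0509). That of Aldh1a2 was lost without untreated replicate 2 (-0.94, adjusted p = 0.0972) or BLM day 63 replicate 2 (-0.95, adjusted p = 0.0762) or 3 (-0.92, adjusted p = 0.0974). That of Upk1b was lost without untreated replicate 3 (-0.33, adjusted p = 0.0937) or BLM day 63 replicate 3 (-0.32, adjusted p = 0.132). All 6 comparisons share the 3 untreated libraries. No group was given vehicle alone or left untreated for each day. Time, age and the dosing itself therefore cannot be told apart from the agent in these comparisons.

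**Figure D2:**
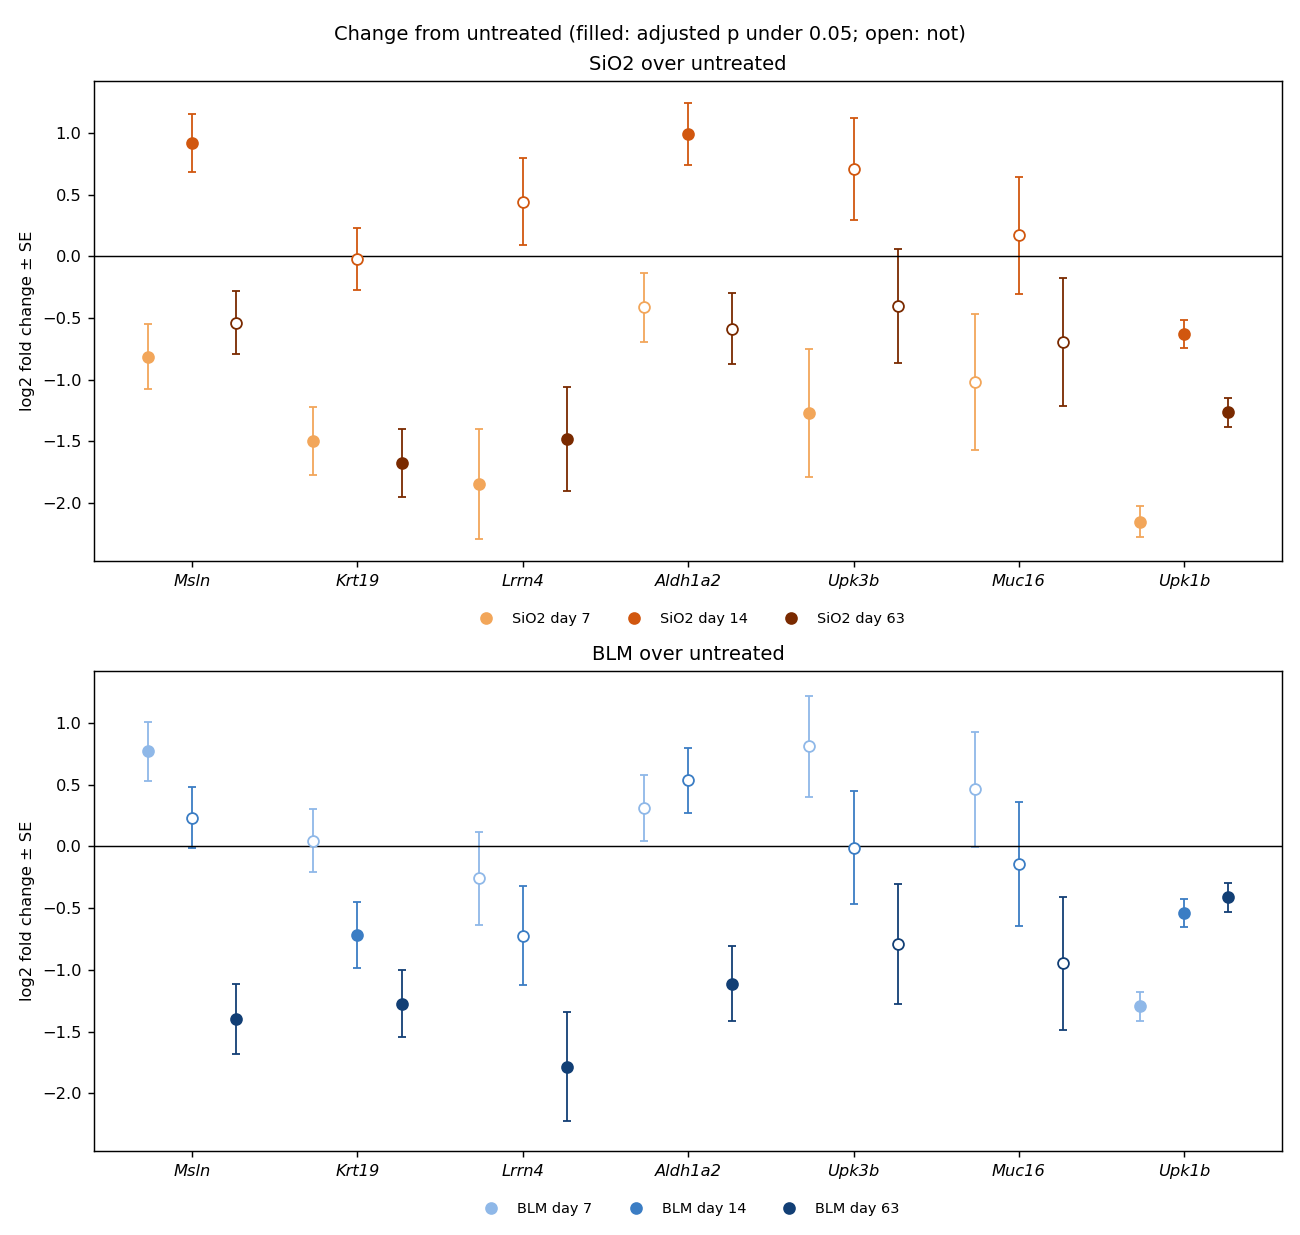
Log2 fold change with SE of the 7 tested markers in silica (upper panel) and bleomycin (lower panel) at day 7, 14 and 63, each over untreated; filled points passed an adjusted p of 0.05. Upk1b is below 0 in all 6 comparisons, while Msln is above 0 at SiO2 day 14 and at BLM day 7 and below 0 at SiO2 day 7 and at BLM day 63.

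The models were next compared at the same day. At day 7, 5 of 7 tested markers were lower in silica than in bleomycin, where 5.10% of all genes were lower and 10.4% were called. Msln had 11.8 ± 2.05 CPM at SiO2 day 7, against 35.1 ± 12.0 CPM at BLM day 7 (log2 fold change -1.58 ± 0.25, adjusted p = 3.25e-05). Krt19 had 28.3 ± 7.57 CPM, against 82.6 ± 32.4 CPM (-1.55 ± 0.27, adjusted p = 0.000173). Upk3b (-2.08 ± 0.47, adjusted p = 0.00233), Lrrn4 (-1.59 ± 0.45, adjusted p = 0.0182) and Upk1b (-0.86 ± 0.12, adjusted p = 7.36e-06) were also lower. The libraries of these 5 and of Muc16 did not overlap, 6 of 7 tested markers, where 12.4% of all tested genes were lower without overlap. Upk3b and Muc16 passed the filter on low counts only through groups other than SiO2 day 7, so their part in these counts is a description. The summed endothelial markers moved the same way, with 19.7 to 28.3 CPM at SiO2 day 7 against 35.1 to 45.6 CPM at BLM day 7. Of the 4 tested endothelial genes Kdr (-1.85, adjusted p = 0.0115) and Plvap (-1.61, adjusted p = 0.000578) were lower, with a median of -1.10, and their part in these results was not tested. The summed epithelial markers overlapped between the groups, at 42.5 to 64.5 CPM in silica and 50.7 to 61.8 CPM in bleomycin. Muc16 was at -1.48 ± 0.51 (adjusted p = 0.0561) and passed without BLM day 14 replicate 1 (-1.48, adjusted p = 0.0433), a library outside the comparison. Aldh1a2 was at -0.72 ± 0.27 (adjusted p = 0.0875) and passed without BLM day 7 replicate 3 (-0.97, adjusted p = 0.0209). The Lrrn4 call was lost without BLM day 7 replicate 1 (-1.24, adjusted p = 0.143) or SiO2 day 7 replicate 2 (-1.50, adjusted p = 0.0702) or 3 (-1.54, adjusted p = 0.0672), and with limma-voom (-1.51, adjusted p = 0.0606).

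At day 14 the estimates were above 0 for all tested markers but Upk1b. Only 2 of 7 passed, both higher in silica, where 9.06% of all genes were higher and 17.1% were called. Msln had 39.0 ± 10.7 CPM at SiO2 day 14, against 24.5 ± 4.69 CPM at BLM day 14 (log2 fold change 0.68 ± 0.23, adjusted p = 0.0361). Lrrn4 had 12.1 ± 4.97 CPM, against 5.48 ± 1.16 CPM (1.17 ± 0.38, adjusted p = 0.0293). Both calls depended on single libraries. That of Msln was lost without SiO2 day 14 replicate 1 (0.70, adjusted p = 0.0631) or 3 (0.45, adjusted p = 0.268), or BLM day 14 replicate 1 (0.76, adjusted p = 0.0543) or 3 (0.52, adjusted p = 0.188), and with DESeq2 (0.67, adjusted p = 0.0515). That of Lrrn4 was lost without SiO2 day 14 replicate 3 (0.77, adjusted p = 0.258), or BLM day 14 replicate 1 (1.23, adjusted p = 0.0624) or 3 (0.99, adjusted p = 0.130), and with limma-voom (1.11, adjusted p = 0.0517). Krt19 was at 0.70 ± 0.26 (adjusted p = 0.0670), and passed without SiO2 day 14 replicate 2 (0.94, adjusted p = 0.0135), or without BLM day 7 replicate 1 (0.70, adjusted p = 0.0454) or 3 (0.70, adjusted p = 0.0401). Upk1b was at -0.09 ± 0.12 (adjusted p = 0.675), with 301.7 ± 26.2 CPM at SiO2 day 14 and 321.0 ± 29.6 CPM at BLM day 14. Aldh1a2 (0.46 ± 0.24, adjusted p = 0.215), Upk3b (0.72 ± 0.41) and Muc16 (0.31 ± 0.48) did not pass.

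At day 63, Msln was higher and Upk1b lower in silica, 2 of 7 tested markers where 15.6% of all genes were called. Upk1b had 194.3 ± 19.1 CPM at SiO2 day 63, against 351.0 ± 40.1 CPM at BLM day 63 (log2 fold change -0.85 ± 0.12, adjusted p = 2.54e-06). Msln had 14.2 ± 3.52 CPM, against 7.84 ± 0.320 CPM (0.86 ± 0.29, adjusted p = 0.0379), and its libraries did not overlap. That call was lost without SiO2 day 63 replicate 1 (0.84, adjusted p = 0.0873) or 3 (0.68, adjusted p = 0.205), or BLM day 63 replicate 1 (0.83, adjusted p = 0.110), 2 (0.88, adjusted p = 0.0803) or 3 (0.88, adjusted p = 0.0932). It was also lost with upper quartile scaling (0.81, adjusted p = 0.0506) and limma-voom (0.83, adjusted p = 0.0874). Krt19 (-0.40 ± 0.29), Lrrn4 (0.30 ± 0.50), Aldh1a2 (0.52 ± 0.31), Upk3b (0.39 ± 0.49) and Muc16 (0.25 ± 0.57) did not pass.

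Within silica, the rise at day 14 took in most markers. Against day 7, 6 of 7 tested markers were higher at SiO2 day 14, where 12.2% of all genes were higher and 23.3% were called. Lrrn4 had 12.1 ± 4.97 CPM at day 14, against 2.47 ± 0.473 CPM at day 7, the largest log2 fold change of the 7 (2.29 ± 0.42, adjusted p = 0.000106). Upk3b (1.98 ± 0.47, adjusted p = 0.00175), Msln (1.73 ± 0.25, adjusted p = 3.14e-06), Upk1b (1.52 ± 0.12, adjusted p = 1.05e-10), Krt19 (1.48 ± 0.27, adjusted p = 0.000127) and Aldh1a2 (1.41 ± 0.26, adjusted p = 0.000102) rose as well. Muc16 was at 1.19 ± 0.52 (adjusted p = 0.0953). For all 7 tested markers every day 14 library lay above every day 7 library, which held for 18.5% of all tested genes. Upk3b and Muc16 passed the filter on low counts only through groups other than SiO2 day 7, so their part here is a description. The count stayed at 6 without any 1 of the 21 libraries. The summed epithelial markers went the other way, with 16.0 to 31.8 CPM at SiO2 day 14 against 42.5 to 64.5 CPM at SiO2 day 7. The summed endothelial markers rose with the members, to 34.2 to 49.8 CPM at SiO2 day 14, against 19.7 to 28.3 CPM at SiO2 day 7. Of 4 tested endothelial genes 3 were higher, namely Kdr (1.76), Tek (1.25) and Ramp2 (0.55), with a median log2 fold change of 0.90. The summed myeloid markers were at 26.2 to 38.0 CPM, against 13.9 to 16.6 CPM. The part of these lists in the rise was not tested.

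From that level the markers were lower again at SiO2 day 63. Against SiO2 day 14, 5 of 7 tested markers were lower, where 2.00% of all genes were lower and 3.52% were called. Msln (log2 fold change -1.45 ± 0.24, adjusted p = 0.000332), Krt19 (-1.65 ± 0.28, adjusted p = 0.000415), Lrrn4 (-1.92 ± 0.40, adjusted p = 0.00414), Aldh1a2 (-1.58 ± 0.26, adjusted p = 0.000332) and Upk1b (-0.63 ± 0.12, adjusted p = 0.00134) fell. Upk3b (-1.11 ± 0.42, adjusted p = 0.145) and Muc16 (-0.87 ± 0.50, adjusted p = 0.401) did not pass. The Lrrn4 call was lost without SiO2 day 14 replicate 3 (-1.53, adjusted p = 0.0571). The median was -1.45 over the 7 tested markers and -0.0001 over all tested genes. The summed epithelial markers were at 10.9 to 20.0 CPM at SiO2 day 63, against 16.0 to 31.8 CPM at SiO2 day 14, and their part in these results was not tested.

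Within bleomycin, Upk1b alone of the 7 tested markers passed at day 14 against day 7, where 10.0% of all genes were called. It had 321.0 ± 29.6 CPM at BLM day 14, against 190.4 ± 8.59 CPM at BLM day 7 (log2 fold change 0.75 ± 0.12, adjusted p = 5.41e-05). Msln was at -0.54 ± 0.23 (adjusted p = 0.153) and passed without BLM day 7 replicate 3 (-0.79, adjusted p = 0.0228). Krt19 was at -0.76 ± 0.26 (adjusted p = 0.0621) and passed without BLM day 7 replicate 3 (-1.03, adjusted p = 0.0100). It also passed without any 1 of 4 libraries outside the comparison, namely untreated replicate 1 (-0.78, adjusted p = 0.0456) or 2 (-0.78, adjusted p = 0.0443) and SiO2 day 14 replicate 2 (-0.77, adjusted p = 0.0410) or 3 (-0.77, adjusted p = 0.0289).

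At BLM day 63 against BLM day 14, Msln and Aldh1a2 fell, 2 of 7 tested markers where 16.9% of all genes were lower and 32.3% were called. Msln had 7.84 ± 0.320 CPM at day 63, against 24.5 ± 4.69 CPM at day 14 (log2 fold change -1.63 ± 0.28, adjusted p = 2.45e-05). Aldh1a2 had 5.99 ± 2.79 CPM, against 18.9 ± 3.20 CPM (-1.65 ± 0.29, adjusted p = 3.85e-05). Krt19 (-0.56 ± 0.28, adjusted p = 0.129) and Lrrn4 (-1.06 ± 0.48, adjusted p = 0.0856) did not pass although their libraries did not overlap, and Lrrn4 passed without untreated replicate 1 (-1.06, adjusted p = 0.0457). Upk1b was at 0.13 ± 0.12 (adjusted p = 0.433).

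**Figure D3:**
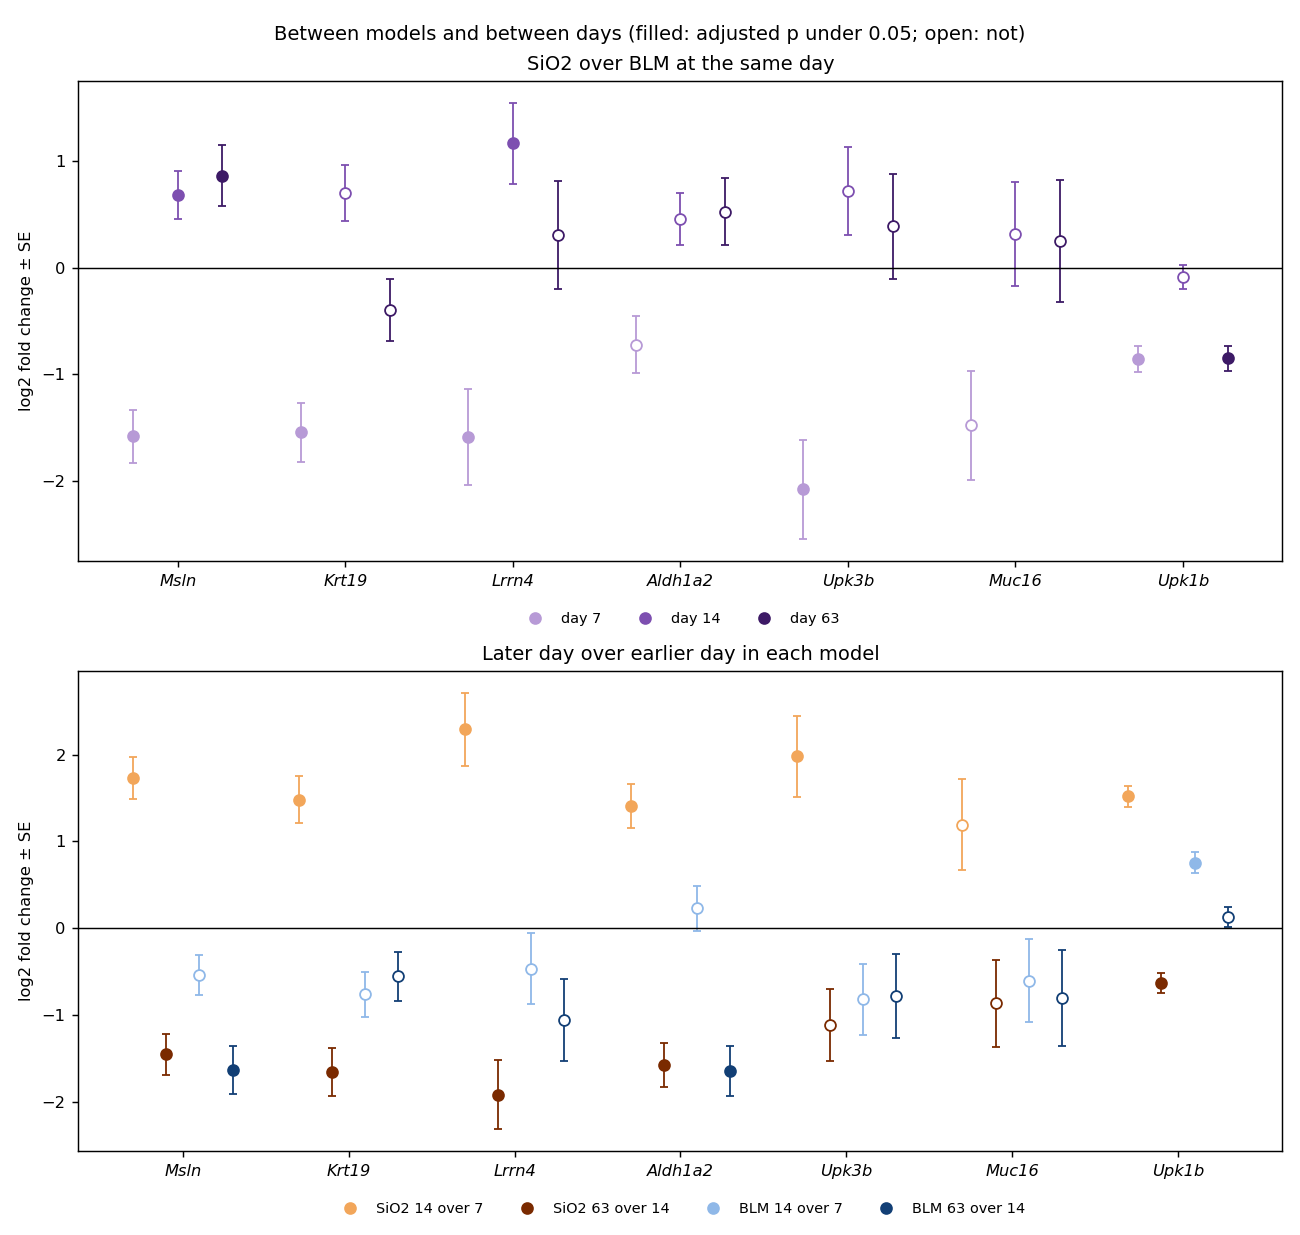
Log2 fold change with SE of the 7 tested markers, SiO2 over BLM at the same day (upper panel) and later over earlier day in each model (lower panel); filled points passed an adjusted p of 0.05. In the upper panel all 7 markers are below 0 at day 7 and all but Upk1b are above 0 at day 14; in the lower panel all 7 are above 0 for SiO2 day 14 over day 7 and below 0 for SiO2 day 63 over day 14.

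Whether the models moved differently from day 14 to day 63 was tested as an interaction, the change in silica minus that in bleomycin. Upk1b (-0.76 ± 0.17 on the log2 scale, adjusted p = 0.00100) and Krt19 (-1.10 ± 0.39, adjusted p = 0.0480) passed, 2 of 7 tested markers where 18.5% of all genes were called. For Upk1b the change was -0.63 in silica and 0.13 in bleomycin, and for Krt19 it was -1.65 in silica and -0.56 in bleomycin. The Krt19 call was lost without any 1 of 11 libraries. These were SiO2 day 14 replicate 3 (-0.69, adjusted p = 0.231), all 3 of SiO2 day 63, BLM day 14 replicates 1 and 2, BLM day 63 replicates 1 and 3, and, outside the 4 groups, SiO2 day 7 replicate 2, BLM day 7 replicate 2 and untreated replicate 3 (adjusted p 0.0525 to 0.231 over the 11). It was also lost with DESeq2 (-1.10, adjusted p = 0.129) and limma-voom (-1.03, adjusted p = 0.0888). Msln (0.18 ± 0.37), Aldh1a2 (0.07 ± 0.39), Lrrn4 (-0.86 ± 0.64), Upk3b (-0.33 ± 0.64) and Muc16 (-0.06 ± 0.75) did not pass.

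In levels, Upk1b was the marker least like the others. Over the 21 libraries, Pearson correlations of log2(CPM + 1) ran from 0.542 to 0.882 for the 15 pairs among the other 6 tested markers. Those between Upk1b and the other 6 ran from 0.162 to 0.455. Taken as deviations from group means, the ranges were -0.143 to 0.766 and 0.0780 to 0.385, which overlap. These are descriptions over libraries that share their groups and depth.

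Single libraries also shifted several markers at once. Untreated replicate 1 had the lowest level of all 7 tested markers in its group. SiO2 day 14 replicate 3 was the highest of its group for 6 of 7, all but Muc16. BLM day 7 replicate 1 was the highest of its group for 6 of 7, all but Aldh1a2, and BLM day 7 replicate 3 the lowest for 5 of 7. At BLM day 14 no library was the highest or lowest of its group for more than 3 of 7.

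**Figure D4:**
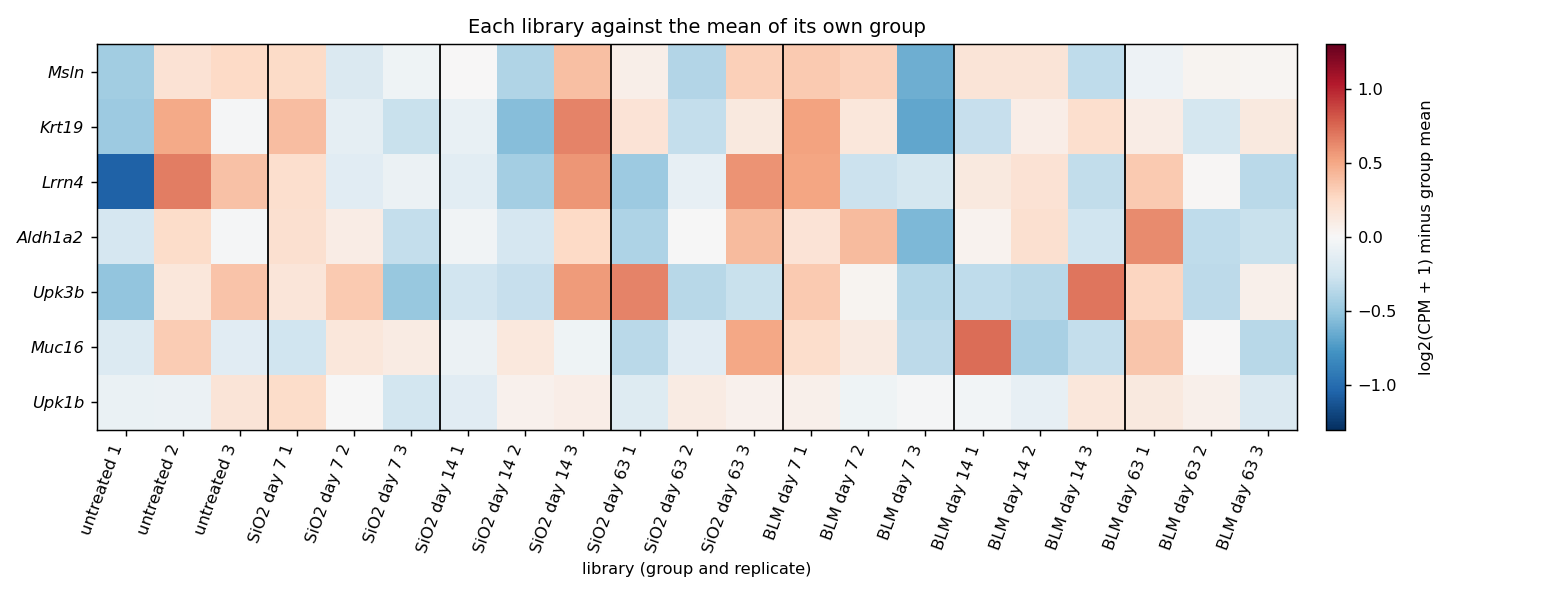
Deviation of each library from its group mean, in log2(CPM + 1), for the 7 tested markers (down) and 21 libraries (across, by group). Untreated replicate 1 is blue for all 7 markers and SiO2 day 14 replicate 3 is red for 6 of them.

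The genes most like Msln over the 21 libraries, among 8511 tested genes with a mean of at least 5 CPM, were Pkhd1l1 (r = 0.875), Krt7 (0.853), Atp1b1 (0.837), Gpm6a (0.834) and Adgrd1 (0.772). Those most like Upk3b were Bcam (0.801), Krt7 (0.800), Atp6v0a4 (0.779), Pkhd1l1 (0.757) and Has1 (0.754). Krt7, a keratin partner of simple epithelia, and Gpm6a, a membrane glycoprotein, are themselves used as mesothelial markers. Both were named here for their likeness over these same 21 libraries. Their sharing of the Msln pattern follows from that choice, so their values and adjusted p-values below are descriptions. Other ranked genes used as such markers were less like Msln, from Ezr (0.646) down to Pdpn (0.155), Thbd (0.071) and Ildr2 (-0.065). Krt7 had 85.3 ± 21.2 CPM at SiO2 day 7, 183.5 ± 86.0 CPM at SiO2 day 14 and 86.6 ± 7.95 CPM at SiO2 day 63. In bleomycin it had 239.5 ± 57.1, 158.9 ± 11.3 and 84.6 ± 12.7 CPM at day 7, 14 and 63, and in untreated libraries 198.3 ± 68.0 CPM. Against untreated, Krt7 fell by 1.22 ± 0.23 at SiO2 day 7 (adjusted p = 8.49e-05), by 1.20 ± 0.23 at SiO2 day 63 (adjusted p = 0.000195) and by 1.23 ± 0.23 at BLM day 63 (adjusted p = 0.000515), on the log2 scale. Gpm6a rose to 10.8 ± 1.79 CPM at SiO2 day 14, against 5.89 ± 1.80 CPM in untreated libraries (0.94 ± 0.28, adjusted p = 0.0110). It was lower than in untreated libraries at SiO2 day 7 (-1.12, adjusted p = 0.00727) and BLM day 63 (-1.11, adjusted p = 0.0275).

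Of 22 further genes used as mesothelial or pleural markers, 21 were in the files and 15 were tested. Against untreated, 4 were higher and 7 lower at SiO2 day 7, 5 and 1 at SiO2 day 14, and 4 and 6 at SiO2 day 63, where 44.1%, 24.1% and 27.8% of all tested genes were called. In bleomycin 6 were higher and 1 lower at day 7, 6 and 4 at day 14, and 1 and 3 at day 63, where 31.6%, 39.3% and 11.5% of all tested genes were called. Between silica days, 9 of the 15 were higher and 1 lower at day 14 against day 7 (23.3% of all tested genes called), and 2 were higher and 6 lower at day 63 against day 14 (3.52%). The median log2 fold change of the 15 was -0.98 at SiO2 day 7, 0.48 at SiO2 day 14 and -0.35 at SiO2 day 63 against untreated, with medians over all tested genes of 0.04, 0.03 and 0.02. Among untested genes of this list, Calb2, which encodes the mesothelial calcium-binding protein calretinin, averaged at most 0.951 CPM in any group, and Bnc1 at most 1.08 CPM.

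The genes of that list called most often against untreated did not share a direction. Ildr2 was higher in all 6 comparisons, with 172.9 ± 13.6 CPM at SiO2 day 63 and 152.7 ± 29.0 CPM at BLM day 63, against 28.95 ± 7.15 CPM in untreated libraries (log2 fold changes 2.60 ± 0.17, adjusted p = 7.23e-13, and 2.42 ± 0.17, adjusted p = 1.01e-10). Anxa8, an annexin, was higher in 5 of 6, with 17.9 CPM at BLM day 14 against 1.19 CPM in untreated libraries (3.65 ± 0.49, adjusted p = 3.50e-07). Pdpn, which encodes the surface glycoprotein podoplanin, was higher in 4 of 6, with its largest change at SiO2 day 7 (1.49 ± 0.26, adjusted p = 2.36e-05). Thbd, which encodes the anticoagulant receptor thrombomodulin, was lower in 5 of 6, with 11.7 CPM at SiO2 day 7 against 61.3 CPM in untreated libraries (-2.38 ± 0.21, adjusted p = 9.86e-11). Ezr, which encodes the microvillus linker ezrin, was lower in 4 of 6, at SiO2 day 7 by 1.68 ± 0.25 (adjusted p = 2.69e-06), and at SiO2 day 14 it had 31.1 CPM against 12.0 CPM at SiO2 day 7 (1.38 ± 0.26, adjusted p = 0.000131). Several of these genes are also expressed by fibroblasts or endothelium.

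Around Aldh1a2, 15 genes of retinoic acid synthesis, binding, receptors and breakdown were counted, of which 11 were tested. Against untreated, 2 were higher and 5 lower at SiO2 day 7, 2 and 3 at SiO2 day 14, and 2 and 4 at SiO2 day 63, where 44.1%, 24.1% and 27.8% of all tested genes were called in either direction. In bleomycin 2 were higher and 3 lower at day 7, 2 and 4 at day 14, and 0 and 2 at day 63, where 31.6%, 39.3% and 11.5% were called. Aldh1a2 itself was higher at SiO2 day 14 and lower at BLM day 63.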

How the data were processed

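Per the labels' protocols, Lin-, propidium iodide-negative, Col1a2-GFP+ lung cells were sorted and 3′ tags of polyadenylated RNA sequenced. The deposited files hold unnormalized counts of reads per gene symbol, 1 file for each of 21 libraries. Bowtie2 2.2.5 and mm10 are named in the submitters' processing notes; counting program, annotation and strand setting are not given in the sources used here. Of the symbols, 17830 (76.8%) matched GENCODE vM21.

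Genes with low counts were removed with filterByExpr by group (minimum count 10), leaving 11669 genes, which held 99.68% of all counts. Libraries were scaled by TMM, and edgeR 4.0.16 (R 4.3.3) fitted 1 quasi-likelihood model of the 7 groups, with 14 residual degrees of freedom and a biological coefficient of variation of 12.0%. Each of 14 comparisons had its p-values adjusted after Benjamini and Hochberg over all 11669 genes; called means an adjusted p under 0.05. The same step was tested on simulated counts with 200 genes changed in BLM day 7 alone. It recovered the sign of those changed genes that were called. False calls were not part of that sign check. Alternatives were RLE and upper quartile scaling, no filter, DESeq2 1.42.0, limma-voom (limma 3.58.1), the groups compared alone, a replicate block, and each library left out. Likeness between genes was Pearson's r of log2(CPM + 1). Intervals of count ratios were exact 95% intervals. Named other genes were the 5 most like Msln and Upk3b, and those of the further marker list called most often against untreated. The members and lists were chosen with earlier results of these data known.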

Additional observations from a re-analysis of the deposited data

Results flagged for a closer look

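Msln differed between the models at day 7 (log2 fold change of SiO2 over BLM -1.58 ± 0.25, adjusted p = 3.25e-05), where it lay on opposite sides of untreated, at -0.81 ± 0.27 in silica and 0.77 ± 0.24 in bleomycin. Each of the 2 values against untreated lost its call without single libraries, while the difference between the models passed without any 1 of the 21.

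Upk1b changed differently from day 14 to day 63 in the models, by -0.76 ± 0.17 (log2, silica minus bleomycin, adjusted p = 0.00100), falling in silica and not passing in bleomycin. Krt19 showed a difference of the same sign, -1.10 ± 0.39 (adjusted p = 0.0480), which did not pass without any 1 of 11 libraries. What lies behind these differences was not tested.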

How the results depend on the processing

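Of the 98 marker values (7 tested markers in 14 comparisons), 45 were called, and 30 of these passed in every alternative. No called value changed sign, while values that were not called changed sign 35 times. Counts of called markers moved by over 1.5 times as follows. With DESeq2 and with limma-voom, 1 marker rather than 2 was called at BLM day 14 against untreated, at SiO2 against BLM at day 14, and in the interaction, which also gave 1 with the replicate block. At SiO2 against BLM at day 63, upper quartile scaling and limma-voom gave 1 rather than 2. With no filter, 3 rather than 1 were called at BLM day 14 against day 7 and 6 rather than 2 at BLM day 63 against day 14, and fitting only the groups compared gave 2 and 4. The 6 include Krt8 and Wt1, which the filter removes, at 0.00789 and 0.0419 (adjusted p).

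Leaving out 1 library at a time gave 3 to 5, 2 to 3 and 2 to 4 called markers at SiO2 day 7, 14 and 63 against untreated, and 1 to 2, 1 to 3 and 2 to 5 at the same days of bleomycin. SiO2 against BLM gave 4 to 6, 0 to 3 and 1 to 2 at day 7, 14 and 63. SiO2 day 14 against day 7 gave 6 throughout, SiO2 day 63 against day 14 gave 4 to 5, BLM day 14 against day 7 gave 1 to 3, BLM day 63 against day 14 gave 2 to 3, and the interaction 1 to 2. Without the 3 keratins the summed level was 132.2, 388.5 and 224.7 CPM in silica at day 7, 14 and 63, 259.2, 377.0 and 371.0 CPM in bleomycin at those days, and 517.8 CPM in untreated libraries. The causes of these shifts were not tested. No pairing of libraries by replicate number was found with the rule used. In 0 of 21 pairs of groups did all 3 correlations of same-numbered deviations exceed 0.1. With 3 libraries per group, that rule cannot exclude weaker pairing. The block changed no call of a marker but that of Krt19 in the interaction (adjusted p = 0.0613). The largest shift of the median over all genes between scalings was 0.08 on the log2 scale. Depth limits Krt8, Krt18, Wt1 and Muc16, where no library had over 13 counts.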
